A study of Mus musculus with 24 samples.

Results

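The stretch of mouse chromosome 4 within 1 Mb of a viewpoint called 154.9 was examined for its contacts with that viewpoint. It was cut into 332 HindIII fragments, of the 42400 fragments of the chromosome, chosen by position alone. They start at 153951842 or later (mm9) and run to the chromosome end, without the viewpoint fragment, chr4:154951842-154952528, and 1 neighbour on either side. Of these, 185 lie on the side of lower coordinates, reaching 984 kb from the viewpoint, and 147 lie on the side of higher coordinates, where the chromosome ends 674 kb from it. The first fragment inside the limit, 153967036 to 153967686, held 0.0133% to 0.0479% of counts in the 8 libraries, and the first outside, 153942759 to 153966618, held 0.0190% to 0.109%. Distances are between the nearest ends of a fragment and the viewpoint fragment unless a window is named.

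The contacts were measured by paired-end 4C sequencing in mouse embryonic stem cells of strain C57Bl/6 x 129/Sv at passage 7. The groups were the line OCF2ΔYY1 (here the YY1 line) at day 3 and at day 0, and the line OCF2ΔOCT4/SOX2 (here the OctSox line) at day 3 and at day 0, with 2 biological replicates in each. The series title places these days at the onset of differentiation, and no agent is named. Titles of other libraries of these lines name a WT Oct4 viewpoint and a mutated viewpoint on chr11, Mut_YY1 or Mut_OctSox by line. The line names are therefore not taken to mean loss of the factors themselves. Whether a line is 1 clone is not given in the sources used here, and how the lines were made is likewise not given. Nothing says that replicates came from separate cultures, so p-values may measure technical spread only.

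In 4C, chromatin is crosslinked and digested, and fragments held near each other are ligated, so that reads found next to the viewpoint report which fragments lay close to it. Contact falls steeply with distance along a chromosome because neighbouring DNA is tethered together. Departures from that fall can reflect loops and domains, and also how well a given fragment is digested, ligated, amplified and mapped. YY1 is a zinc finger factor known to bind promoters and enhancers, and Oct4 and Sox2 are transcription factors of the pluripotent state. No gene is assigned to a fragment here, because the annotation at hand is of another build.

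The 8 libraries held 1318028 to 2279333 counts, of which the viewpoint fragment took 10.9% to 63.8%. The fragments within 1 Mb held 323315 to 1247328 counts per library, and 308 to 317 of the 332 had at least 1 count. Shares are given as percent of the counts outside the viewpoint and its neighbours. The viewpoint fragment took more of the library at day 3 in the YY1 line, 63.8% and 36.01%, against 22.01% and 10.9% at day 0. In OctSox libraries it took 56.3% and 27.2% at day 3, against 20.1% and 31.2% at day 0. Replicates of a group differed in this share as well, and its part in the results below was not tested.

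Contact was unevenly spread. Over the pooled libraries, 10 fragments held 28.7% of the counts within 1 Mb, 27 held 50%, and 100 held 85.8%. In 50 kb windows counted outwards from the viewpoint, the first window held 8.97% ± 4.64 of counts on the lower side and 14.1% ± 4.53 on the higher side (SD, n = 8 libraries). From 30 kb to 0.5 Mb, the slope of log10 count per fragment on log10 distance ran between -0.75 and -1.46 on the lower side and between -0.75 and -1.18 on the higher side. The planned start was 20 kb, and the start at 30 kb was added. From 20 kb, each side opened with a bin of 1 fragment, on the lower side the innermost one, which held few counts. Slopes from 20 kb lay between -0.16 and 0.87 on the lower side and between -0.42 and 0.13 on the higher side.

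The fall with distance was not smooth. On the lower side, the window at 150 to 200 kb held 1.52% ± 0.339 of counts over 10 fragments, while the next window out, at 200 to 250 kb, held 2.67% ± 0.381 over 8 fragments (SD, n = 8). The nearer window was the lower one in each of the 8 libraries. On the higher side, the window at 150 to 200 kb held 3.32% ± 0.722, against 2.77% ± 0.532 at 100 to 150 kb, both over 11 fragments. There the order was the other way in YY1 day 3 replicate 2, with 2.29% at 150 to 200 kb and 2.87% at 100 to 150 kb, and nearly level in YY1 day 3 replicate 1, with 2.36% and 2.34%. A deeper gap lay at 300 to 350 kb on the higher side, with 0.230% ± 0.0788 over 12 fragments, between 1.46% ± 0.335 at 250 to 300 kb and 0.713% ± 0.197 at 350 to 400 kb. These windows were picked after their values were seen and are given without a test.

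**Figure D1:**
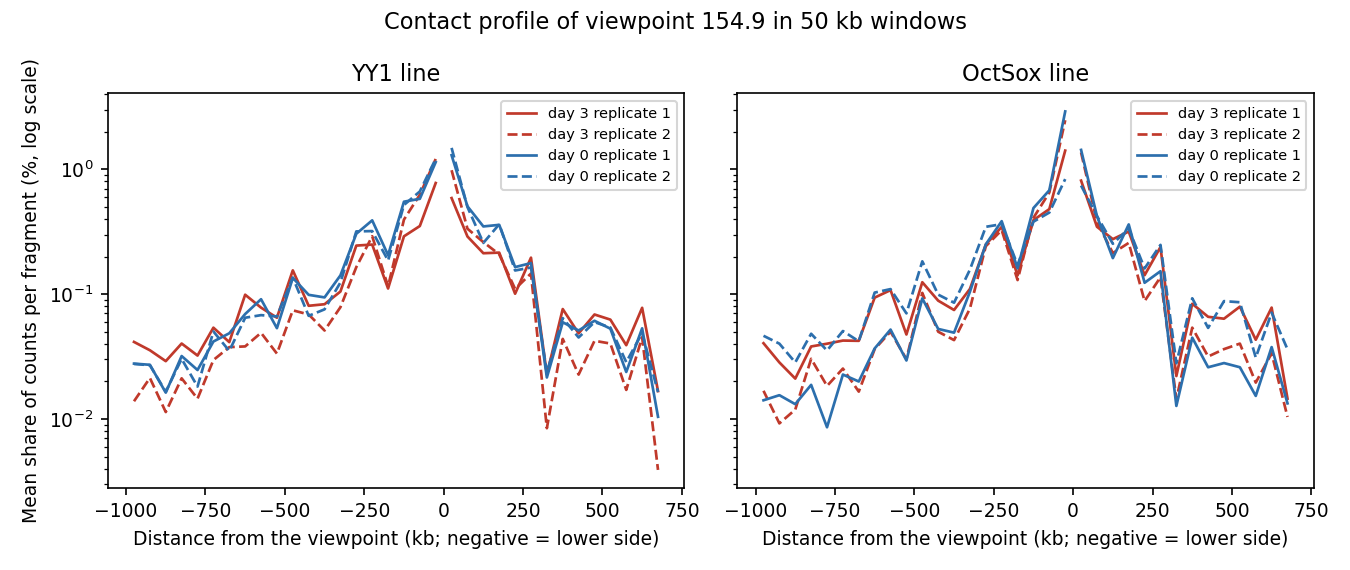
Mean share of counts per fragment (percent, log axis) in 50 kb windows against distance from the viewpoint in kb, negative on the lower side, with 1 line per library, for the YY1 line (left) and the OctSox line (right). All 8 libraries fall away on both sides and dip at 300 to 350 kb on the higher side, where the mean window share was 0.230%.

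Some fragments were almost never seen although their neighbours were. Of the 332 fragments, 22 had at most 24 counts over all 8 libraries (6.63%), against 67.1% of the rest of chromosome 4. These comprised 5 on the lower side and 17 on the higher side, and 11 had no count in any library. In the gap on the higher side, 6 adjoining fragments, chr4:155286210-155297514 (11305 bp), had 0 counts in all 8 libraries. With 0 counts, 3 counts is the upper limit, which covers counting error only. The last 3 fragments of the chromosome, chr4:155606679-155630120, also had 0 counts.

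Closer in, the pair of fragments chr4:154804208-154818748 on the lower side had 4 counts in all, between neighbours of 33228 and 30007 counts. On the higher side, chr4:155082352-155090915 had 2 counts between neighbours of 49628 and 28005. The innermost fragment of the lower side, chr4:154926174-154930001, lies 21.8 kb from the viewpoint and held at most 0.00986% of counts in any library. The fragment next to it, 154914833 to 154926167, was among the most contacted of all. Whether these fragments can be mapped uniquely was not tested.

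**Figure D2:**
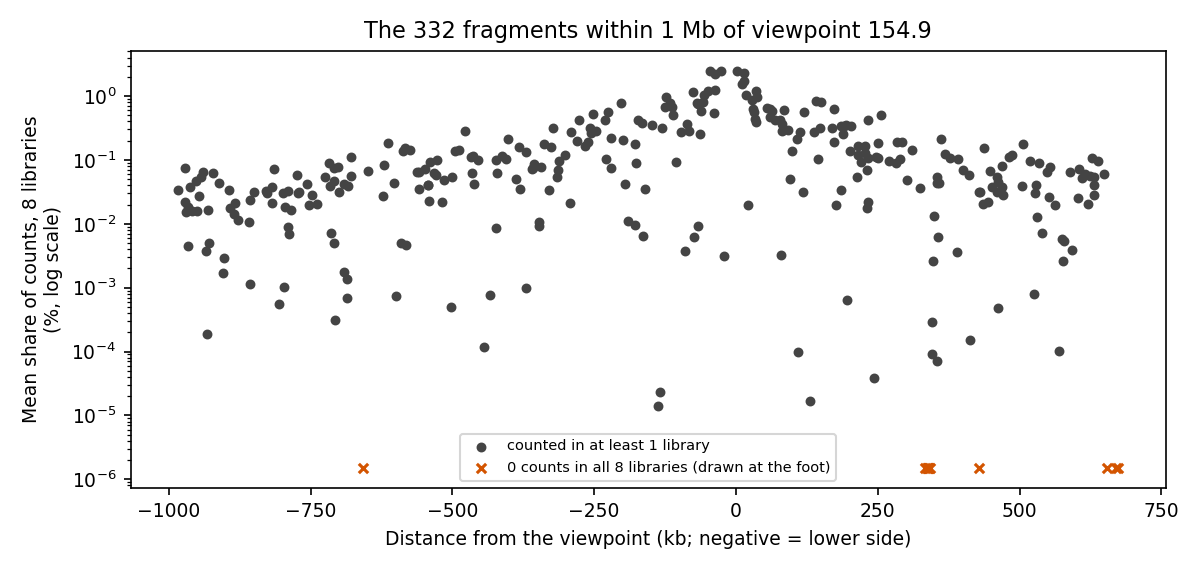
Mean share of counts over the 8 libraries (percent, log axis) for each of the 332 fragments against distance from the viewpoint in kb, negative on the lower side. Crosses at the foot mark the 11 fragments with 0 counts in every library, 10 of them on the higher side.

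Fragment length went with contact only loosely. The median count relative to the fragment's own window was 0.709 for the 14 fragments of 500 bp or less, 0.581 for the 37 of 501 to 1000 bp and 1.06 for the 77 of 5001 to 10000 bp. Spearman's rho between length and that relative count, over the same 332 fragments in each library, was 0.201, 0.0436, -0.0285 and 0.0154 in the YY1 libraries (day 3 replicates 1 and 2, then day 0 replicates 1 and 2). It was 0.229, 0.289, 0.323 and 0.201 in the OctSox libraries in the same order. Points share their library, their viewpoint and their distance, so no p is given.

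The rank order of fragments was similar between libraries. Spearman's rho over the 332 fragments was 0.915 to 0.963 between replicates, 0.887 to 0.957 between days of a line and 0.899 to 0.963 between lines at a day. Between libraries that differed in both line and day it was 0.843 to 0.959. All of these share the fall with distance. Each of the ranges between groups overlapped the range between replicates and reached below it.

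On the lower side, the 3 most contacted fragments were the same in both lines. Fragment 154914833 to 154926167, 25.7 kb away, took 1.19% and 1.64% of counts in YY1 day 3 libraries and 1.26% and 1.62% in YY1 day 0 libraries. It took 2.01% and 4.80% in OctSox day 3 libraries and 6.37% and 1.16% in OctSox day 0 libraries. The OctSox replicates were thus further apart than the days were. Fragment 154901822 to 154906277, 45.6 kb away, took 1.32% and 1.82% at YY1 day 3, against 1.99% and 2.47% at YY1 day 0, with no overlap. At OctSox day 3 it took 2.24% and 4.20%, against 3.82% and 1.76% at OctSox day 0, and there the days overlapped. The small fragment 154914326 to 154914826 took between 1.11% and 4.05% over the 8 libraries.

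On the higher side, the 3 most contacted fragments were again the same in both lines. Fragment 154954693 to 154964047, the innermost one kept, took 1.11% and 2.13% at YY1 day 3, against 1.72% and 2.17% at YY1 day 0. At OctSox day 3 it took 2.01% and 4.45%, against 5.18% and 1.03% at OctSox day 0. Days overlapped in both lines. Fragment 154967579 to 154971095, 15.1 kb away, took between 0.879% and 2.66% over the 8 libraries.

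Fragment 154966015 to 154967572, 13.5 kb away on the higher side, differed most between the lines in its day values by unadjusted p. It took 1.37% and 1.16% of counts at YY1 day 3, against 2.98% and 4.65% at YY1 day 0. At OctSox day 3 it took 1.46% and 3.07%, against 1.79% and 1.73% at OctSox day 0. The days were apart in the YY1 line and overlapped in the OctSox line, a pattern that its choice by p favours. The log2 fold change of day 3 over day 0 was -1.90 ± 0.49 in the YY1 line and 0.22 ± 0.72 in the OctSox line (SE from the edgeR test). The difference between these, by edgeR's interaction term, was -2.09 ± 0.51 with an adjusted p of 0.0892, and did not pass.

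**Figure D3:**
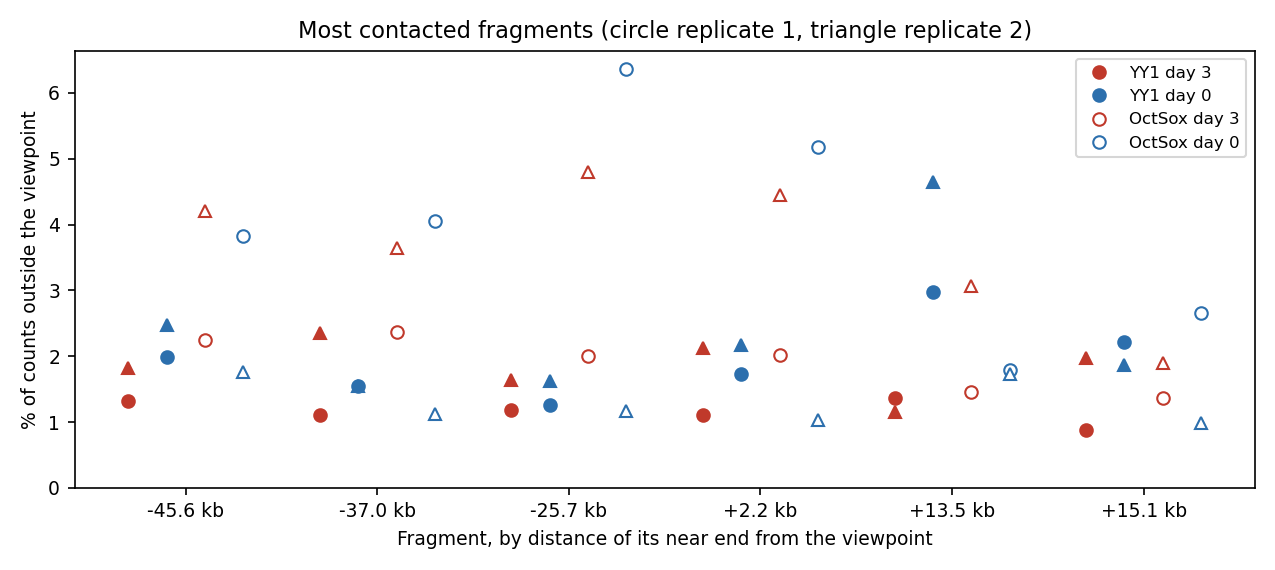
Share of counts outside the viewpoint (percent) of the 6 most contacted fragments, each named by its distance in kb, with 1 symbol per library, YY1 line filled and OctSox line open, day 3 red and day 0 blue. At the fragment at 13.5 kb on the higher side both YY1 day 3 libraries (1.37% and 1.16%) lie below both YY1 day 0 libraries (2.98% and 4.65%).

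Farther out, no fragment named beyond 250 kb held more than 0.720% of counts in a library. Beyond 250 kb on the lower side, fragment 154696250 to 154700281 took 0.454% and 0.332% at YY1 day 3, against 0.707% and 0.622% at YY1 day 0. At OctSox day 3 it took 0.574% and 0.488%, against 0.390% and 0.695% at OctSox day 0. Its YY1 days did not overlap and its OctSox days did. Next to it in rank were 154672102 to 154675931 and 154626406 to 154630006, which held 0.211% to 0.531% over all libraries. On the higher side beyond 250 kb, fragment 155207844 to 155222680 took 0.509% and 0.324% at YY1 day 3 and 0.315% and 0.325% at YY1 day 0. At OctSox day 3 it took 0.656% and 0.601%, against 0.523% and 0.720% at OctSox day 0. Fragments 155237218 to 155241535 and 155314661 to 155321622 held 0.111% to 0.331% over all libraries.

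The share of counts lying within 1 Mb was lower at day 3 in the YY1 line. It was 48.8% and 56.2% at YY1 day 3, against 73.8% and 74.7% at YY1 day 0. The OctSox line had 62.7% and 70.3% at day 3, against 77.6% and 62.5% at day 0. The groups were apart in the YY1 line and overlapped in the OctSox line. Over both lines the share was 59.5% ± 9.17 at day 3 and 72.2% ± 6.65 at day 0 (SD, n = 4 each), a difference of -12.6 percentage points, with an exact two-sided permutation p of 0.167 (0.444 adjusted over 6 measures). Day labels were permuted within lines in 36 arrangements, which cannot give a p under 0.0556. Taken as percent of all counts, the viewpoint and its neighbours included in the total alone, it was 17.2% and 35.02% at YY1 day 3, against 56.1% and 64.2% at YY1 day 0, and 26.7% and 47.8% at OctSox day 3, against 57.3% and 42.2% at OctSox day 0. When the viewpoint and its neighbours were also counted as lying within 1 Mb, the difference over both lines was 0.534 points, and with the number of fragments seen at least once in place of their counts it was 0.0794 points.

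Of the counts up to 0.5 Mb on each side, the lower side held 49.9% and 50.6% in YY1 day 3 libraries and 46.6% and 45.8% in YY1 day 0 libraries. It held 50.7% and 53.4% at OctSox day 3 and 54.5% and 48.8% at OctSox day 0. The YY1 line averaged 48.2% ± 2.40 and the OctSox line 51.8% ± 2.59 (SD, n = 4 each). This difference of -3.60 points had an exact permutation p of 0.0556, the smallest possible, and 0.333 after adjustment. The share on the 10 most counted fragments of each library was 20.6% and 33.0% at YY1 day 3, 25.2% and 27.7% at YY1 day 0, 26.1% and 41.4% at OctSox day 3 and 41.1% and 18.8% at OctSox day 0. Here replicates spanned most of the range.

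**Figure D4:**
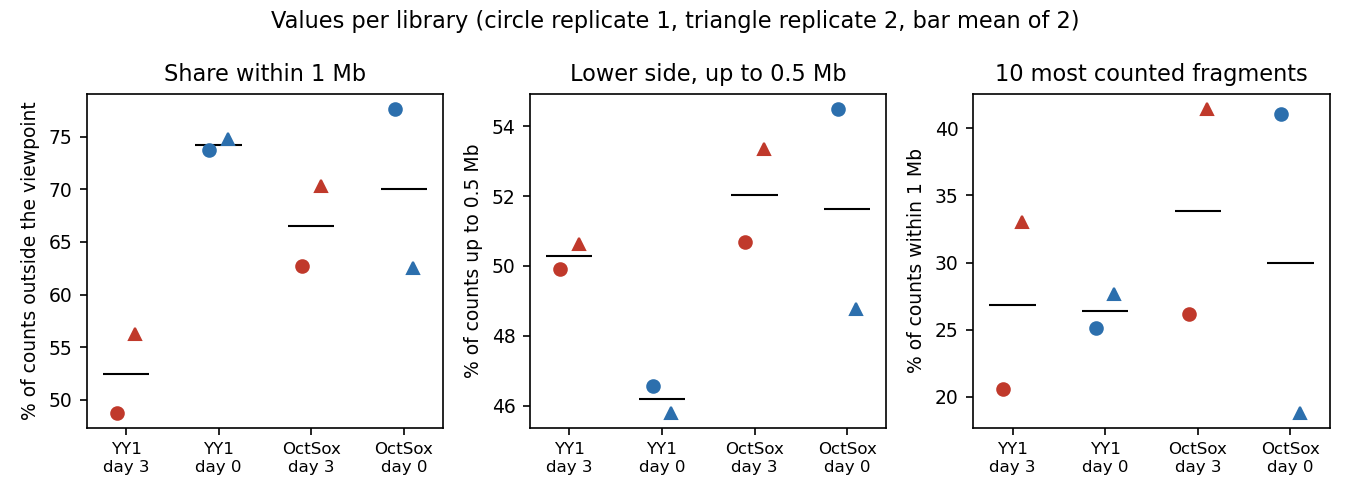
Values per library for the share of counts within 1 Mb, the share of counts up to 0.5 Mb on the lower side and the share on the 10 most counted fragments (percent), with circles for replicate 1, triangles for replicate 2 and bars for the mean of 2. The axes do not start at 0. The YY1 day 3 libraries (48.8% and 56.2%) lie below the YY1 day 0 libraries in the first panel, while OctSox replicates are wide apart in all 3.

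The counts were also split into 5 distance bands on each side, and 2 of the 10 bands had the smallest p possible for the day. From 100 to 250 kb on the lower side the share was 7.15% ± 0.951 at day 3 and 9.23% ± 1.01 at day 0. From 50 to 100 kb on the higher side it was 4.25% ± 0.459 at day 3 and 5.61% ± 0.556 at day 0 (SD, n = 4 each). Each had an exact permutation p of 0.0556 and 0.278 after adjustment over 10 bands. Beyond 500 kb the share was 3.44% ± 1.28 at day 3 and 3.71% ± 1.26 at day 0 on the lower side, and 1.49% ± 0.561 at day 3 and 1.39% ± 0.474 at day 0 on the higher side, with adjusted exact permutation p-values of 0.944.

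Tested one by one with edgeR's quasi-likelihood test across all fragments of the chromosome that passed the low-count filter, no fragment within 1 Mb passed an adjusted p of 0.05 in any comparison. In simulation the test had little power over the chromosome as a whole. In counts simulated with the spread estimated from these data, it recovered 0% of 4-fold changes in each comparison and 0% to 8% of 16-fold changes. The changed fragments were drawn from all fragments tested, most of them farther out, and those lost to the low-count filter counted as missed. Power within 1 Mb was therefore not measured, and a lack of calls is no sign that contacts were alike. For day 3 against day 0, 302 fragments within 1 Mb were tested in the YY1 line, 297 in the OctSox line and 301 over both lines, and the share called along the chromosome was 0% in each. For the YY1 against the OctSox line, 301 were tested and the share called was 0%. For the difference in day effect between the lines it was 0.0325%, which was 3 fragments, none of them within 1 Mb. DESeq2 also called none within 1 Mb. Leaving out 1 library gave calls in some fits over both lines and in each fit between the lines, and each such fit left 1 library in a group. In the YY1 day comparison none were called on the same fragments. With the low-count filter set again some were, without YY1 day 3 replicate 1 and without YY1 day 3 replicate 2. In those refiltered fits the median log2 fold change within 1 Mb was -1.18 without YY1 day 3 replicate 1 (-0.64 over all fragments tested) and -1.06 without YY1 day 3 replicate 2 (-0.44 over all). Without YY1 day 0 replicate 1 it was -1.12 (2.29 over all), and without YY1 day 0 replicate 2 it was -0.87 (0.91 over all). Fragments left out by the filter held too few counts to be tested.

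At an unadjusted p under 0.05, 36 of 302 fragments were marked in the YY1 day comparison, 35 with lower and 1 with higher values at day 3, where 5.44% of all fragments tested were marked. In the OctSox day comparison 3 of 297 were marked (2.87% of all), and over both lines 67 of 301 (8.18% of all), 66 of them with lower values. Between the lines 25 of 301 were marked (8.39% of all), 19 of them with higher values in the YY1 line, and 5 of 301 in the test of the difference (9.07% of all). The share in the line comparison was near that of the chromosome. The marked counts for the day depended on the scaling and the test. In the YY1 line 14 of 302 were marked with total count scaling (6.93% of all), 15 with RLE size factors (6.26% of all) and 4 with DESeq2 (10.3% of all). Over both lines 20 of 301 were marked with total count scaling (7.73% of all), 10 with RLE size factors (8.32% of all) and 3 with DESeq2 (10.7% of all). Under each of these the share marked within 1 Mb was below that of the chromosome.

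The median log2 fold change of day 3 over day 0 in the YY1 line was -0.81 for the fragments within 1 Mb and 0.05 for all fragments tested. For the OctSox line it was -0.40 within 1 Mb and -0.07 over all. With total count scaling the median within 1 Mb was -0.32 in the YY1 line and -0.19 in the OctSox line, and with RLE size factors it was -0.51 in the YY1 line and -0.23 in the OctSox line. When libraries were scaled by the counts within 1 Mb, which centres these fragments by construction, the median within 1 Mb was 0.12 in the YY1 line and -0.08 in the OctSox line, and the median of all fragments was 1.01 in the YY1 line and 0.20 in the OctSox line. Relative to all fragments, the median within 1 Mb differed by -0.84 to -0.94 in the YY1 line and by -0.24 to -0.33 in the OctSox line under the 4 scalings tried. A loss near the viewpoint and a gain elsewhere cannot be told apart in such values.

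**Figure D5:**
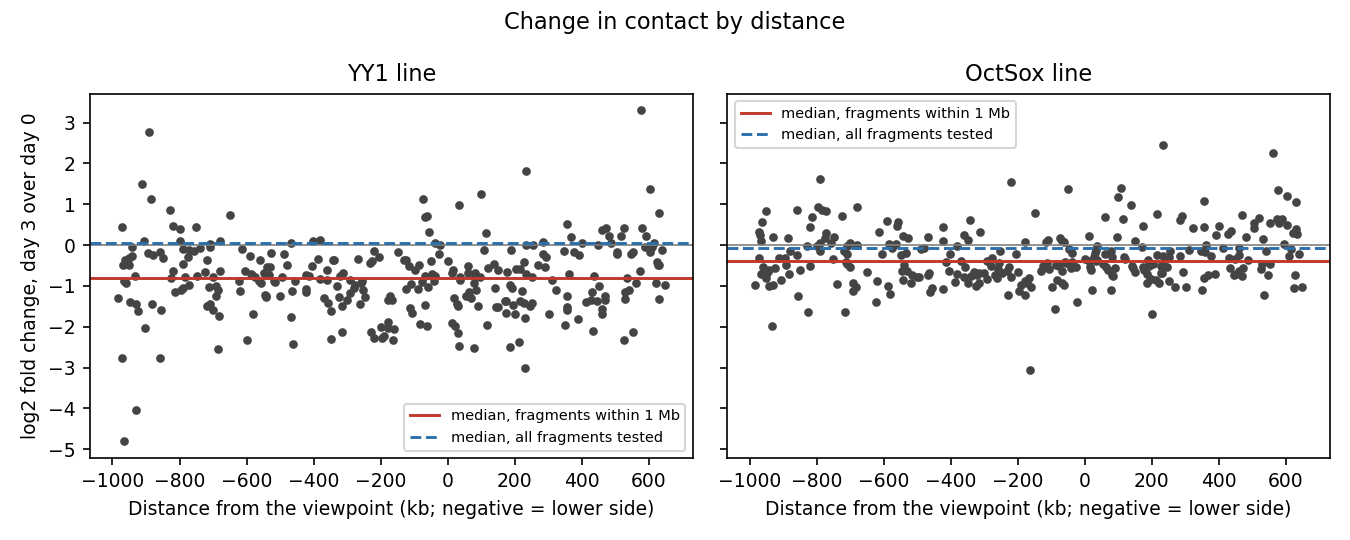
Log2 fold change of day 3 over day 0 (edgeR, scaled over the chromosome) for each tested fragment within 1 Mb against distance from the viewpoint in kb, negative on the lower side, for the YY1 line (left) and the OctSox line (right). The median within 1 Mb (solid) is -0.81 in the YY1 line and -0.40 in the OctSox line, and the median of all fragments tested (dashed) is 0.05 in the YY1 line and -0.07 in the OctSox line.

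Scored by overlap of libraries, 104 of 286 fragments within 1 Mb with a median count of at least 40 had both YY1 day 3 libraries below both YY1 day 0 libraries, where 14% of all such fragments did. In the other direction there were 12 (19.2% of all). Taken as shares of the counts within 1 Mb instead, 45 were lower (6.87% of all) and 42 were higher (28.3% of all). In the OctSox line, 55 of 281 were lower at day 3 (13.3% of all) and 16 were higher (14% of all). As shares of the counts within 1 Mb, 37 OctSox fragments were lower (11.1% of all) and 11 were higher (13.3% of all). In the YY1 line lower fragments thus outnumbered higher ones as shares of the counts outside the viewpoint. As shares of the counts within 1 Mb, 15.7% of those within 1 Mb were lower and 14.7% higher, against 6.87% and 28.3% of all. In the OctSox line lower ones outnumbered higher ones on both. As shares of the counts within 1 Mb, the OctSox lower ones (13.2%) were near the 11.1% of all. The OctSox higher ones (3.91%) were below the 13.3% of all.

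Summed in 50 kb windows, none of the 34 windows within 1 Mb passed with edgeR in any day comparison, and none passed between the lines. DESeq2 called some of the 34 in the YY1 line and over both lines, as given under the processing below. In the YY1 line all 34 windows had negative log2 fold changes, with a median of -1.29, and with total count scaling 26 of the 34 did. At an unadjusted p under 0.05, 29 of the 34 were marked, where 9.54% of all windows were. With total count scaling 4 of the 34 were marked, where 14.2% of all windows were, and the median was -0.25. With RLE size factors all 34 were negative, with a median of -1.19. Relative to all windows, the YY1 median within 1 Mb differed by -1.53 with TMM, -1.50 with total count scaling and -1.53 with RLE size factors. In the OctSox line this difference was -0.34, -0.37 and -0.32 in the same order. With TMM the most negative YY1 windows were -1.77 ± 0.35 at 150 to 200 kb on the lower side (edgeR adjusted p 0.207), -1.77 ± 0.38 at 0 to 50 kb on the higher side (adjusted p 0.222) and -1.76 ± 0.33 at 150 to 200 kb on the higher side (adjusted p 0.207). Of the OctSox windows 31 of the 34 had negative values, with a median of -0.34, and with total count scaling 22 did. No OctSox window reached an unadjusted p of 0.05 (1.67% of all windows did). Over both lines, all 34 values were negative (28 with total count scaling) and 19 windows were marked at an unadjusted p under 0.05, where 6.45% of all windows were (0 with total count scaling, where 7.34% of all were), and 0.149% of all windows were called, none of them within 1 Mb. Between the lines 1 window within 1 Mb was marked, where 4.81% of all were, and 0.0373% of all were called. That window was 0 to 50 kb on the lower side, with a log2 fold change of -1.06 ± 0.39 for the YY1 over the OctSox line and an edgeR adjusted p of 0.882.

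How many YY1 windows passed depended on which library was left out, and each such fit left 1 library in a group. Windows passed when a YY1 day 3 library was left out and not when a YY1 day 0 library was. Counts of windows passing are not given for such fits. With the low-count filter set again, the median log2 fold change within 1 Mb was -1.41 without YY1 day 3 replicate 1 (0.27 over all windows tested). It was -1.17 without YY1 day 3 replicate 2 (-0.01 over all). Without YY1 day 0 replicate 1 it was -1.33 (0.86 over all), and without YY1 day 0 replicate 2 it was -1.21 (0.61 over all). YY1 day 3 replicate 1 had the fewest counts outside the viewpoint, 662576, and the highest viewpoint share, 63.8%. YY1 day 3 replicate 2 had 1420056 counts outside the viewpoint and a viewpoint share of 36.01%. The part of these in the windows passing was not tested.

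Of the 5 fragments with the smallest unadjusted p for the day in the YY1 line, taken 20 kb or more apart, all had lower values at day 3. Fragment 154987414 to 154988216, 34.9 kb away on the higher side, took 0.266% and 0.116% at YY1 day 3, against 0.657% and 0.864% at YY1 day 0, a log2 fold change of -2.47 ± 0.52 with an edgeR adjusted p of 0.639. In the OctSox line it took 0.249% and 0.304% at day 3, against 0.275% and 0.393% at day 0, a change of -0.39 ± 0.54. Days were apart in the YY1 line, which its choice by p favours, and overlapped in the OctSox line. The other 4 lay on the lower side, at 83.6, 199, 230 and 931 kb, with log2 fold changes of -1.93 ± 0.55, -2.00 ± 0.58, -2.12 ± 0.66 and -4.04 ± 1.03 and the same adjusted p of 0.639. The last of these, 154020295 to 154021036, had 23 and 33 counts at YY1 day 3, against 539 and 631 counts at YY1 day 0, and at most 0.0378% of counts in any library.

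In the OctSox line the 5 fragments with the smallest unadjusted p pointed both ways. Fragment 154726404 to 154731381, 220 kb away on the lower side, took 0.358% and 0.167% at OctSox day 3, against 0.0455% and 0.122% at OctSox day 0, a log2 fold change of 1.55 ± 0.56 (edgeR adjusted p 0.826). In the YY1 line it took 0.181% and 0.362% at day 3, against 0.388% and 0.159% at day 0, with overlap. Fragment 154895461 to 154901815, 50.0 kb away, took 1.497% and 2.18% at OctSox day 3, against 0.476% and 0.930% at OctSox day 0, a change of 1.37 ± 0.58 (adjusted p 0.826). At YY1 day 3 it took 0.806% and 1.35%, against 1.18% and 1.35% at YY1 day 0, and the edgeR interaction was -1.67 ± 0.60 with an adjusted p of 0.546. Fragment 155060405 to 155060990 had a change of 1.39 ± 0.55, and 155153907 to 155155117 and 154233700 to 154235300 had changes of -1.70 ± 0.61 and -1.64 ± 0.82.

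Over both lines, fragment 154774975 to 154778783, 173 kb away on the lower side, was lower at day 3 in each line. It took 0.284% and 0.239% at YY1 day 3, against 0.441% and 0.557% at YY1 day 0. At OctSox day 3 it took 0.362% and 0.346%, against 0.573% and 0.581% at OctSox day 0. No day 3 library reached a day 0 library of its line, which its choice by a small p for the day favours. The log2 fold change over both lines was -1.19 ± 0.35, with an edgeR adjusted p of 0.590. Fragment 154883228 to 154884500, 67.3 kb away, took 0.392% and 0.539% at YY1 day 3, against 0.947% and 1.31% at YY1 day 0, and 0.446% and 0.663% at OctSox day 3, against 1.06% and 0.722% at OctSox day 0. Its change was -1.30 ± 0.35, with the same adjusted p.

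Between the lines, 4 of the 5 fragments with the smallest unadjusted p had higher values in the YY1 line. Fragment 154986799 to 154987407, 34.3 kb away on the higher side, took 0.249% and 1.57% at YY1 day 3 and 0.603% and 0.327% at YY1 day 0. In the OctSox line it took 0.179% and 0.181% at day 3 and 0.116% and 0.267% at day 0. The log2 fold change of the YY1 over the OctSox line was 2.12 ± 0.50, with an edgeR adjusted p of 0.577. It adjoins fragment 154987414 to 154988216 above, whose log2 fold change between the lines was 0.33 ± 0.42. Fragment 155185008 to 155185687, 232 kb away on the higher side, took 0.103% and 0.243% at YY1 day 3 and 0.183% and 0.139% at YY1 day 0, against 0.0550% and 0.0325% at OctSox day 3 and 0.0339% and 0.0605% at OctSox day 0. The 4 YY1 libraries all lay above the 4 OctSox libraries, and the change was 2.14 ± 0.56 (adjusted p 0.577). Its choice by p in this comparison favours such separation, which is no added support. Fragments 155060405 to 155060990 and 154889035 to 154890756 had changes of 1.88 ± 0.53 and 1.46 ± 0.46. The near fragment 154914833 to 154926167 had a change of -1.36 ± 0.40.

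The remaining fragments with the smallest unadjusted p for the difference in day effect lay on the higher side. Fragment 155101272 to 155102893, 149 kb away, took 0.235% and 0.187% at YY1 day 3, against 0.557% and 0.406% at YY1 day 0, and 0.413% and 0.241% at OctSox day 3, against 0.214% and 0.317% at OctSox day 0. Its edgeR interaction was -1.54 ± 0.84, with an adjusted p of 0.617. Fragments 155125872 to 155126290 and 155307480 to 155308470 had interactions of -2.03 ± 0.97 and -2.40 ± 1.41, and neither passed.

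The authors' deposited table of their own day comparison held 2536 entries for the YY1 line and 1690 for the OctSox line. Its entries carry no names and were placed on fragments by their number and means, and its sign was turned to day 3 over day 0. In the authors' deposited table for the YY1 line, 11 of 2155 entries with an adjusted p were under 0.05 (0.51%), and 1 of these lay within 1 Mb. It was fragment 154057284 to 154060065, 892 kb away on the lower side, with a log2 fold change of 2.90 and a standard error of 0.70 and an adjusted p of 0.00983 in the authors' deposited table, and it was chosen after its values were seen. Its raw counts were 399 and 518 in YY1 day 3 libraries and 97 and 69 in YY1 day 0 libraries, and 105 and 37 in OctSox day 3 libraries and 58 and 127 in OctSox day 0 libraries. The edgeR log2 fold change in the YY1 line was 2.78 ± 0.97, with an adjusted p of 0.639. In the authors' deposited table for the OctSox line none of 254 entries was under 0.05 (0%), and the smallest adjusted p within 1 Mb was 0.0996, at fragment 154726404. The medians within 1 Mb in the authors' deposited tables were 0.01 for the YY1 line and -0.06 for the OctSox line. Over all entries they were -0.02 in each line. The authors' comparison is labelled FourCSeq, and its fold changes may be scaled otherwise than those of edgeR. On its values the YY1 median within 1 Mb was not below that of all entries, while in the edgeR fits it was. In the OctSox line it was lower by less than in those fits. Entries within 1 Mb numbered 286 for the YY1 line and 281 for the OctSox line, fewer fragments than edgeR tested. The reason for the difference was not tested.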

How the data were processed

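Per the labels, cells were crosslinked with 2% formaldehyde for 10 min, cut with HindIII and ligated, and the libraries were read on a MiSeq. Bowtie and mm9 are named in the submitters' processing notes, with no version. The counting step is not given in the sources used. The authors deposited raw counts per HindIII fragment, not corrected for PCR duplicates, so floors cover counting error only, and a list of fragment positions (1-based, as deposited). Tables of the authors' day comparison hold, per the file headers, a log2 fold change with a standard error, a p-value (raw and adjusted), a test statistic (a score) and a mean signal.

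The fragment with most counts over the 8 libraries was taken as the viewpoint. The test for fragments of the whole chromosome was that of edgeR 4.0.16 under R 4.3.3, after filterByExpr with a minimum count of 10 (TMM, quasi-likelihood test, Benjamini-Hochberg adjustment at 0.05) and was also used for 50 kb windows. Each SE is the absolute log2 fold change over the square root of F. DESeq2 1.42.0 was an alternative. Single values per library were compared by exact two-sided permutation. Scripts were tested on simulated data. The edgeR fit recovered 42% to 92% of 4-fold changes at a dispersion of 0.05 and 0% at the dispersions estimated from these data. The changes were placed on fragments drawn from all those tested along the chromosome. Python 3.11.15, numpy 2.4.6, pandas 2.3.3 and scipy 1.17.1 were used. Deviations of replicates with the same number did not correlate positively between days of a line, so numbers were not taken to pair libraries.

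Fragments named were the 5 with the smallest p per comparison where fewer than 5 passed, 20 kb or more apart, the 3 most contacted per side and line, the 3 most contacted beyond 250 kb per side, and those at the limits. The members and lists were chosen with earlier results of these data known.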

Additional observations from a re-analysis of the deposited data

How the results depend on the processing

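Of the 25 results on named fragments, none turned direction under the alternatives tried, and 35 of 413 alternative values passed the threshold where the reported value did not. Fragments within 1 Mb called for the day in the YY1 line, 0 as reported, numbered 2 with no low-count filter and 3 with all 8 libraries in 1 fit. Without a filter the line comparison called 2 and the interaction 1, and the interaction also called 1 with total count scaling. Windows called in the YY1 line numbered 12 with DESeq2, 12 with no filter and 4 at 100 kb, and over both lines 5 with DESeq2. The shares called over the whole chromosome are not given for these alternatives, so the counts cannot be read as particular to this stretch. With the replicate block, 0 fragments and 0 windows within 1 Mb were called in every comparison. Same-numbered libraries deviated in opposite directions between days (Pearson -0.183 in the OctSox line and -0.130 in the YY1 line over 811 fragments). Over the 282 of these within 1 Mb, Pearson's r was -0.458 in the OctSox line and -0.443 in the YY1 line. A crossed pairing was therefore added after seeing the data, under which 4 fragments over both lines and 7 YY1 windows were called. That pairing was chosen from these same deviations, which favours calls, so they are no added support. The day difference in the share within 1 Mb was 0.534 points with the viewpoint and its neighbours counted as within 1 Mb and 0.0794 points for fragments counted, and the higher-side slope differed between lines by -0.0922 from 30 kb.

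Leaving out 1 library at a time on the same fragments gave 0 calls for the day in either line, 0 to 14 over both lines (14 without OctSox day 0 replicate 2), 1 to 9 between lines (9 without YY1 day 3 replicate 1) and 0 to 2 for the interaction. Called windows ran from 0 to 34 in the YY1 line, 0 to 2 over both lines and 0 to 1 between lines. These fits were first run with the low-count filter set again on the libraries left, which changes 2 choices at once, and holding the fragments fixed was chosen after those counts were seen. With the filter set again, the YY1 day calls ran from 0 to 68: 48 without day 3 replicate 1 and 68 without day 3 replicate 2. On the fragments of the full set neither omission gave a call, so these counts depend on the filter. An arm left with 1 library is assumed to vary like the others. Day differences ran from -0.409 to 0.108 in the lower-side slope and from -3.44 to 7.68 points in the share of the 10 most counted fragments. Differences between lines ran from -0.118 to 0.399 in the lower-side slope, from -0.0457 to 0.186 in the higher-side slope and from -10.8 to 0.289 points in that share. The cause was not tested. The median count of a fragment within 1 Mb was 342 to 1128.5 per library, and each group had 2 libraries.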
